A study of Drosophila melanogaster with 2 samples.

Results

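Mitochondrial ribosomal protein genes were examined in anti-GFP chromatin immunoprecipitation sequencing (ChIP-seq) of whole Drosophila melanogaster prepupae, aged 1 day, from the line CG11294-GFP, which carries an insertion expressing CG11294 fused to eGFP. The members were the 73 protein-coding genes of the Ensembl annotation whose symbol starts with mRpL (47, large subunit) or mRpS (26, small subunit), out of 13945 protein-coding genes on the 6 main chromosome arms. There was 1 group with 2 biological replicates. Every sample carried the transgene, and no input, control immunoprecipitation or other stage was analysed here. The labels' antibody field gives CG11294 and their description an antibody against GFP. Which protein was recognised was not tested. The promoter that drives the fusion was not given in the labels. The material was the whole animal, so the tissue behind a site is not known. A gene is called bound below when a summit of the shorter, conservative peak list made from both replicates (the replicated list, 3260 peaks on the arms) lay within 1000 bp of one of its annotated transcription start sites.

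The mitochondrial ribosome translates the few messenger RNAs of the mitochondrial genome, which code for core subunits of the respiratory chain and ATP synthase. Its RNAs are mitochondrial, but all of its proteins are encoded in the nucleus, made in the cytoplasm and imported. Some of the proteins have bacterial counterparts, and others were added in the mitochondrial lineage. The genes tko and bonsai code for mitochondrial ribosomal proteins under other symbols and were counted apart. CG11294 codes for a predicted homeodomain protein.

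A minority of the members were bound, and several of those that were had sites among the strongest of the whole list. Of the 73 members 12 were bound (16.4%, Wilson 95% interval 9.66% to 26.6%), against 11.8% of all protein-coding genes. The background lies within this interval, so the count alone does not set the family apart. By subunit, 7 of 47 large-subunit genes (14.9%) and 5 of 26 small-subunit genes (19.2%) were bound. Each of the 12 had a peak of its own, and all 12 peaks also lay within 1000 bp of a start site of another gene, a protein-coding one in each case. Of all 1648 bound protein-coding genes, whatever their promoter arrangement, 58.2% had a start of another gene of any kind within that distance of their summit. A peak between neighbours cannot be given to one of them. The intervals cover counting over genes only, and read depth was unknown.

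The sequences at the summits were AT-rich and differed from member to member. The 8 shown are 101 bases centred on summits whose window overlapped no annotated exon, read from the RefSeq copy of the Release 6 (dm6) genome on the strand of the member, with the listed summit as the middle base. All 8 lie between the starts of 2 head-to-head genes, where most of the family's summits fell. They are not all of the sites placed in this way. The site of mRpL41, stronger than any of the 8, also lies between head-to-head starts and its sequence is not shown. Capitals mark matches, on either strand, to any of the 9 short words searched, which are spelled out with their shares further on. The windows lie at chr3R:15229479-15229579 (plus strand) for mRpS10, chr2L:13835401-13835501 (minus) for mRpS23, chr2L:4945437-4945537 (minus) for mRpL24, chr2L:4850523-4850623 (minus) for mRpS2, chr3L:13018075-13018175 (minus) for mRpL20, chr3L:4364419-4364519 (plus) for mRpS6, chr3L:18106379-18106479 (plus) for mRpS26 and chr3R:31252679-31252779 (plus) for mRpL32.
mRpS10: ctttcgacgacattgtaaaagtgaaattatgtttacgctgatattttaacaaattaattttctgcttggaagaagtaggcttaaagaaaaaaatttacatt
mRpS23: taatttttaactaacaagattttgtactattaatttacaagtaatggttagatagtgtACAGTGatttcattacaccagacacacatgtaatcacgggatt
mRpL24: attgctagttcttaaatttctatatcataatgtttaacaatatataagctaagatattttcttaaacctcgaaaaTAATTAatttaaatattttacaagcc
mRpS2: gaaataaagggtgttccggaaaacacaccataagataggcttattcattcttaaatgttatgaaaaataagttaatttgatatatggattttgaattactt
mRpL20: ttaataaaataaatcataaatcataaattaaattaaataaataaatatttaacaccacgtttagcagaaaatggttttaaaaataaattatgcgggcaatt
mRpS6: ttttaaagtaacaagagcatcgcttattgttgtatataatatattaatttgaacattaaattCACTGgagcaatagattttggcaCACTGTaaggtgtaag
mRpS26: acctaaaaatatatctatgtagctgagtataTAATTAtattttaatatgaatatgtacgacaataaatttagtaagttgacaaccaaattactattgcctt
mRpL32: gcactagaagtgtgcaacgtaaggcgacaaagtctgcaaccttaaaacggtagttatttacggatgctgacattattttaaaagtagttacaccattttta
GC content of these 101 bases ran from 17.8% (mRpL20) to 36.6% (mRpL32), and the longest stretch made only of A and T ran from 8 bases (mRpS2) to 30 (mRpL20). The word CACTG began 9 bp past the summit at mRpS23 and 12 and 35 bp past it at mRpS6. The homeodomain core TAATTA began 25 bp past the summit at mRpL24 and 19 bp before it at mRpS26. The windows of mRpS10, mRpS2, mRpL20 and mRpL32 held none of the searched words in these 101 bases.

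The strongest sites are given first, with the authors' signal value in the replicated list and then in each replicate's own ranked list. The signal is an enrichment statistic whose scale was not given, so its values describe ranks within a list and are not compared between lists. Replicate 1's ranked list held 65336 peaks on the arms and replicate 2's 89463.

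The site of mRpL41 was the fifth strongest of the replicated list. This gene codes for a large-subunit protein that, in the human mitochondrial ribosome, has no bacterial counterpart. Its peak covered chr2R:15217597-15217915 with a signal of 1292 and a summit 126 bp upstream of the start site. The peak had a signal of 841 (rank 3) in replicate 1 and 452 (rank 15) in replicate 2, so it was near the top of both lists. The mRpL41 start was the nearest to the summit, and the next coding start was that of CG8079, at 636 bp on the opposite strand.

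At mRpS10, the gene of a small-subunit protein with a bacterial counterpart, the peak covered chr3R:15229391-15229683 with a signal of 1129 (rank 9). It ranked 8 in replicate 1 (signal 651) and 10 in replicate 2 (signal 488). The summit lay 136 bp upstream of mRpS10 and 121 bp upstream of Art3, an arginine methyltransferase gene on the other strand. The intergenic region between them is 257 bp long, so the summit stood near its middle. At mRpS23, a small-subunit gene, the peak covered chr2L:13835321-13835610 with a signal of 1081 (rank 11), ranking 25 in replicate 1 (536) and 8 in replicate 2 (547). The summit was 379 bp upstream of mRpS23 but only 113 bp upstream of CenG1A, an Arf GTPase-activating protein gene.

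At mRpL23, the gene of a large-subunit protein whose bacterial counterpart sits at the peptide exit tunnel, the peak covered chr3L:2373461-2373744 with a signal of 838 (rank 30). It ranked 30 in replicate 1 (502) and 42 in replicate 2 (334). The gene has several annotated start sites, and the summit lay 85 bp downstream of the nearest one and 135 bp upstream of CG9004. These 4 sites ranked in the first 42 peaks of the replicated list and of both replicates' ranked lists.

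Another 3 sites formed a middle group. The mRpL24 peak (chr2L:4945376-4945597) had a signal of 393 (rank 171), with ranks of 196 in replicate 1 and 197 in replicate 2, and its summit lay 126 bp upstream of mRpL24 and 92 bp upstream of betaggt-I, a gene of protein prenylation. The mRpS2 peak (chr2L:4850450-4850664) had a signal of 314 (rank 281), with ranks of 272 and 348, at 154 bp upstream of mRpS2 and 68 bp upstream of Mon1, a gene of vesicle trafficking. The mRpL20 peak (chr3L:13018052-13018250) had a signal of 313 (rank 283), with ranks of 286 and 319, at 258 bp upstream of mRpL20 and 141 bp upstream of Icmt, an isoprenylcysteine carboxyl methyltransferase gene. In all 3 the summit was nearer to the neighbour than to the member, and all 3 were past the thresholds of both replicates.

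The last 5 sites each had a peak of 340 bp, the most common width in the list, and 4 of them were past the threshold of replicate 1 only. The exception was mRpS6 (chr3L:4364299-4364638, signal 118, rank 1496), close to the list's median signal of 110, which ranked 1536 in replicate 1 and 1750 in replicate 2 and passed both thresholds. Its summit lay 81 bp upstream of mRpS6 and 367 bp upstream of Cip4, an F-BAR protein gene.

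Of the other 4, mRpS26 (chr3L:18106259-18106598, signal 82.8, rank 2310) had a summit 150 bp upstream of its start and 280 bp upstream of CG13698, and ranked 2199 in replicate 1 and 3646 in replicate 2. The peak of mRpL32 (chr3R:31252559-31252898, signal 72.5, rank 2659) lay 143 bp upstream of its start and 121 bp upstream of qless, a polyprenyl diphosphate synthase gene of ubiquinone synthesis. It ranked 2320 in replicate 1 and 7288 in replicate 2. For mRpL18 (chr2R:12756139-12756478, signal 72.3, rank 2661) the summit was 125 bp upstream of the start and 105 bp inside Taz, the tafazzin gene of cardiolipin remodelling, in an annotated 5′ UTR exon, with ranks of 1968 and 5737. These sites were near the weak end of the replicated list.

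The site counted for mRpL27 was not at its promoter. Its peak (chr2L:4458470-4458809, signal 39.5, rank 3079) had a summit 962 bp downstream of the start site, in an annotated 3′ UTR, and only 276 bp upstream of RpL27A, a cytoplasmic ribosomal protein gene on the same strand. RpL27A had a stronger summit of its own at 19 bp upstream (signal 53.1), and the peaks overlap. The mRpL27 start is head-to-head with CG15435 at 91 bp, with no replicated summit there. It was the member just inside the window, followed by mRpS23 at 379 bp upstream, and the member just outside was mRpL34, with a summit 1174 bp upstream.

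The 7 strongest sites of the replicated list were also the 7 strongest of the 12 in each replicate. All 12 peaks overlapped a thresholded peak of replicate 1, against 84.1% of all 1648 bound protein-coding genes, and 8 of 12 (66.7%) one of replicate 2, against 68.3%. The 4 without one were mRpS26, mRpL32, mRpL18 and mRpL27. The 2 replicates' summits stood 2 to 59 bp apart for 10 of the 12, and 130 bp apart for mRpL18 and 290 bp for mRpL27. The replicated list was selected on agreement between these same 2 replicates. Shared order and close summits are therefore partly built in and are no separate support.

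**Figure D1:**
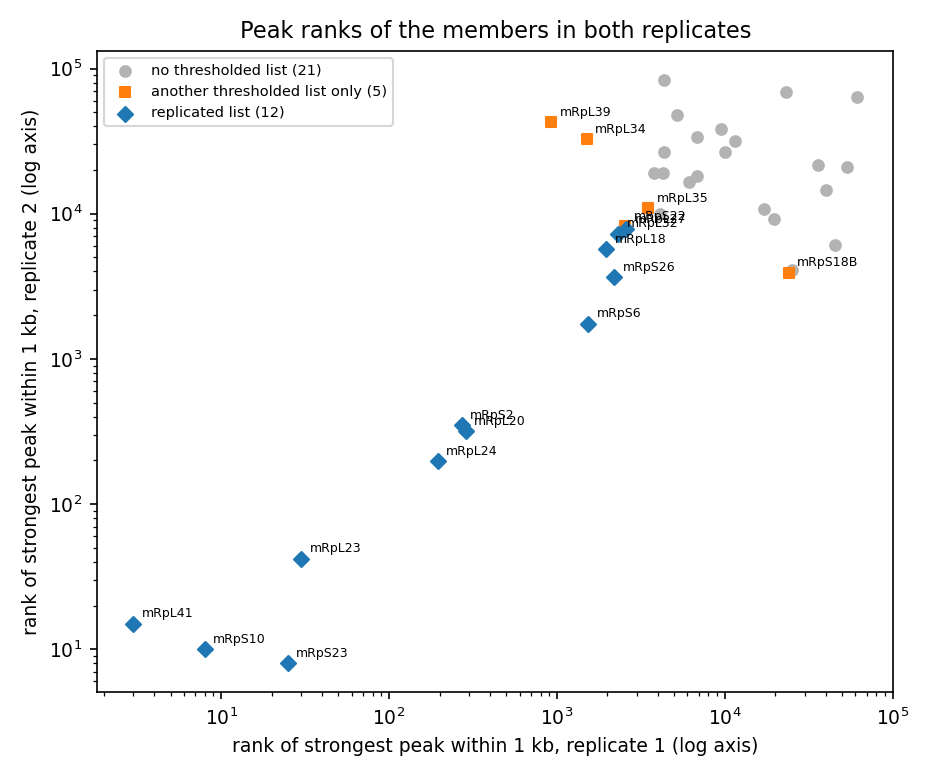
Rank of the strongest peak within 1 kb of each member in replicate 1 (horizontal, log axis) and replicate 2 (vertical, log axis), for the 38 members with a ranked peak in both. Rank 1 is the highest signal. The strongest peak was taken in each replicate separately, so the 2 ranks of a member can come from different peaks. At mRpS18B, for example, it lay at -63 bp in replicate 1 and -640 bp in replicate 2 (negative is upstream). For mRpL27 the replicate 2 peak is not the one overlapping the replicated site. The 7 strongest members lie near the diagonal, with ranks from 3 to 286 in replicate 1 and from 8 to 348 in replicate 2. The replicated list was selected on rank agreement between these replicates.

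Summits of bound members lay mostly upstream and close to the start. The median position was -131 bp from the member's start site (middle 50% from -151 to -114 bp), where negative is upstream, and 10 of the 12 were upstream. Over all 1648 bound protein-coding genes the median was -156 bp (-302 to -70 bp) and 81.2% were upstream. In signal the members were widely spread. The median signal was 313 over the 12 (range 39.5 to 1292) against 140 over all bound protein-coding genes, and 7 of the 12 (58.3%) against 17.7% ranked in the first 300 of the list, a limit chosen after the ranks were seen. The other 5 ranked between 1496 and 3079, with none between ranks 283 and 1496. Genes that share a peak are counted once each in these shares.

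**Figure D2:**
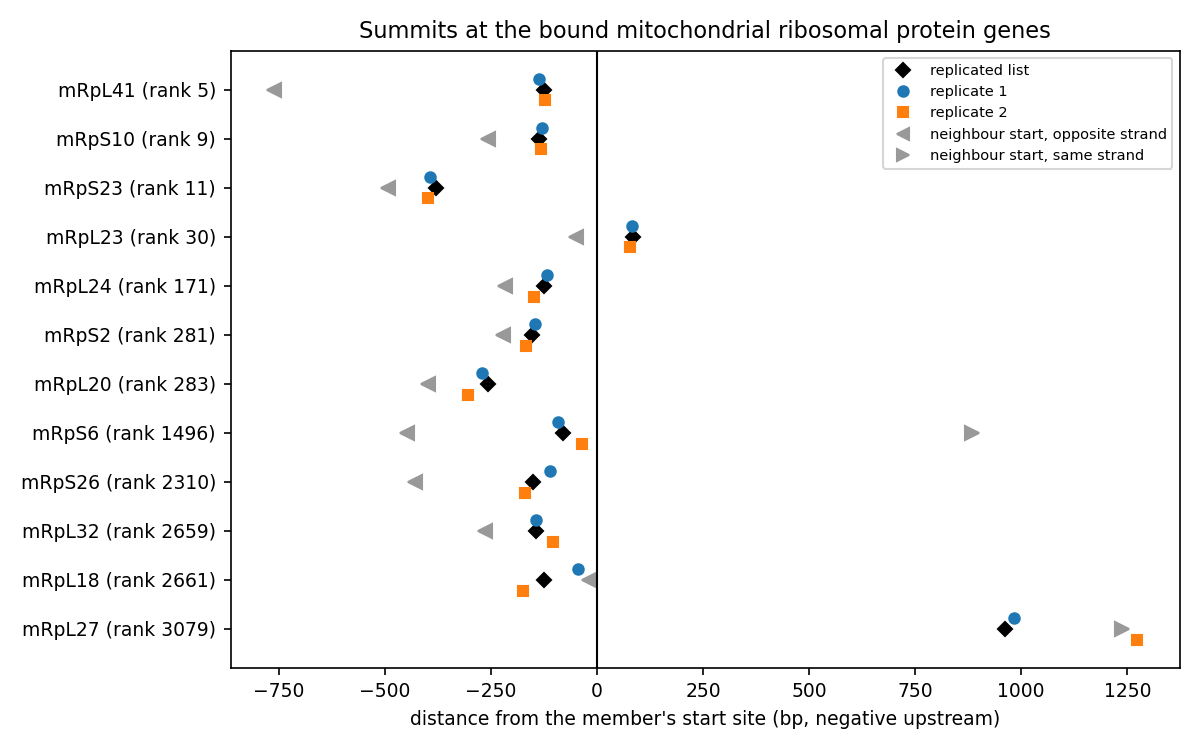
Summit position at each of the 12 bound members, in bp from the member's start site (vertical line) along its strand, in the replicated list (black diamonds), replicate 1 (blue circles) and replicate 2 (orange squares); grey triangles are start sites of neighbouring coding genes within 1 kb of the summit, pointing in their direction of transcription. Most summits lie between the member and an opposite-strand neighbour, and mRpL27 stands apart at 962 bp.

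**Figure D3:**
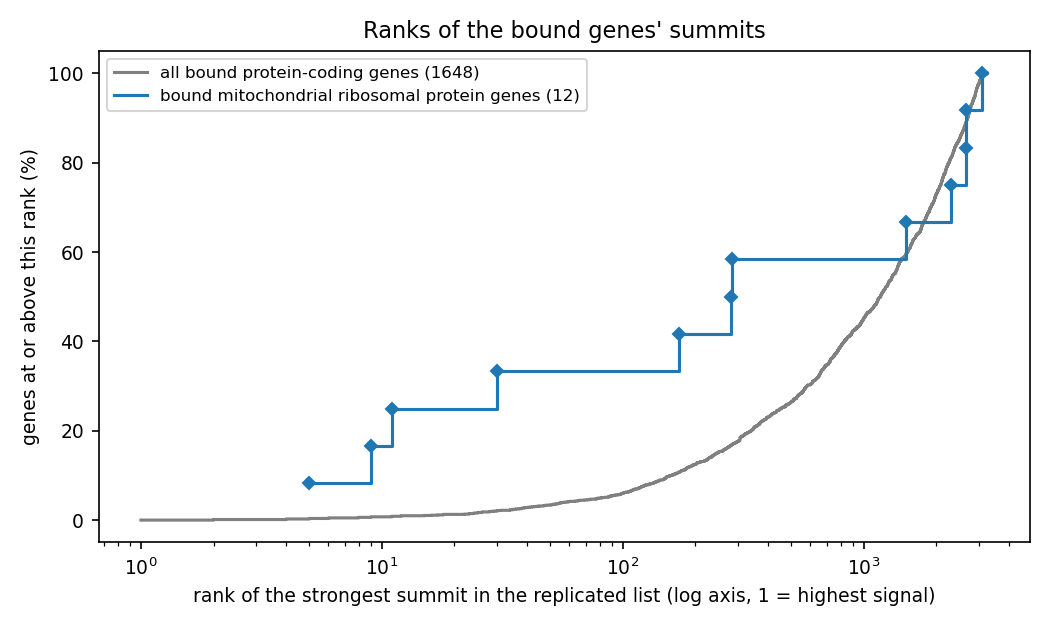
Cumulative share of bound genes (vertical, percent) by rank of their strongest summit in the replicated list (horizontal, log axis), for the 12 members (blue) and all 1648 bound protein-coding genes (grey). Of the members, 7 lie at ranks 5 to 283 and 5 at ranks 1496 to 3079.

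Most of these genes are arranged head-to-head with another gene. Of the 73 members, 53 (72.6%) had an opposite-strand coding start within 500 bp upstream, with a median distance of 264 bp, against 27.4% of all protein-coding genes. Among head-to-head genes of this kind, 11 of 53 members were bound (20.8%) against 19.2% of all 3815 such genes. Without such a neighbour, 1 of 20 members was bound (5.0%, the gene mRpL41) against 9.03% of 10130 genes. The first share is near its background, and 1 bound gene of 20 (Wilson interval 0.888% to 23.6%) cannot place the second. In 9 of the 12 bound members the summit lay between head-to-head coding starts, mRpL41 and CG8079 included, and in 8 of 12 the nearest start site was that of another gene. The member's own start was nearest at mRpL41, mRpL23, mRpS6 and mRpS26, which is 33.3% against 71.2% of all bound protein-coding genes. Head-to-head genes made up 11 of the 12 bound members but 733 of all 1648 bound genes, so 71.2% is not a matched share.

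Other peak lists gave between 10 and 17 bound members. The longer thresholded list of the series held 15 (20.5%, against 15.7% of all protein-coding genes). Replicate 1's own thresholded list held 17 (23.3% against 13.5%) and replicate 2's held 10 (13.7% against 10.3%). In replicate 1 the background lay just under the interval of the members' share (15.1% to 34.2%), and in the other 3 lists inside it. In all, 19 of the 73 members were bound in at least 1 of the 4 thresholded lists (26%, Wilson interval 17.3% to 37.1%), against 18.4% of all protein-coding genes. Bound in all 4 were 8 (11.0%, 5.66% to 20.2%), against 7.51%. Both backgrounds lie inside the intervals. The 8 were mRpL20, mRpL23, mRpL24, mRpL41, mRpS2, mRpS6, mRpS10 and mRpS23.

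Of the members bound outside the replicated list, 5 were bound in replicate 1 and 2 in replicate 2. The peak of mRpL39 (chr3L:14999647-14999976), a large-subunit gene head-to-head with the proteasome gene Prosbeta2, had a signal of 93.5 in replicate 1 (rank 898 of 3217 thresholded peaks). By rank in the ranked lists mRpL39 stood at 924 in replicate 1 and 42991 in replicate 2 (signal 12.7), where no thresholded peak was near it. Its signal of 104 in the list ranked between the replicates was the highest of any unbound member, and its irreproducible discovery rate (IDR, the measure of rank agreement that sets the list) was 0.77 where replicated peaks had at most 0.01. In the same way mRpL34, beside the dystroglycan gene Dg, ranked 1507 in replicate 1 (67.7) and 32839 in replicate 2 (14.8), with an IDR of 0.57 between them. For mRpL37 the rank was 916 in replicate 1 (93.8), with no ranked peak within 1000 bp in replicate 2. Their summits in replicate 1 lay 146, 114 and 178 bp upstream. The remaining 2 of replicate 1 were mRpL35, beside Mitofilin (signal 35.2, 185 bp upstream), and mRpS22, beside CG5003 (45.5, 292 bp upstream). The IDR of mRpS22 was 0.013, just above the limit of 0.01, so its peak was left out of the replicated list. In replicate 2 and not replicate 1, mRpS7 shared a peak with the cell cycle kinase gene Cdk1 (38.5, 134 bp upstream) and mRpS18B with Kua (34.6, 640 bp upstream). The longer list also held mRpL34, mRpL37, mRpL39 and mRpS18B. Each of the 6 peaks with a neighbour named here lay within 1000 bp of a start site of that neighbour.

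**Figure D4:**
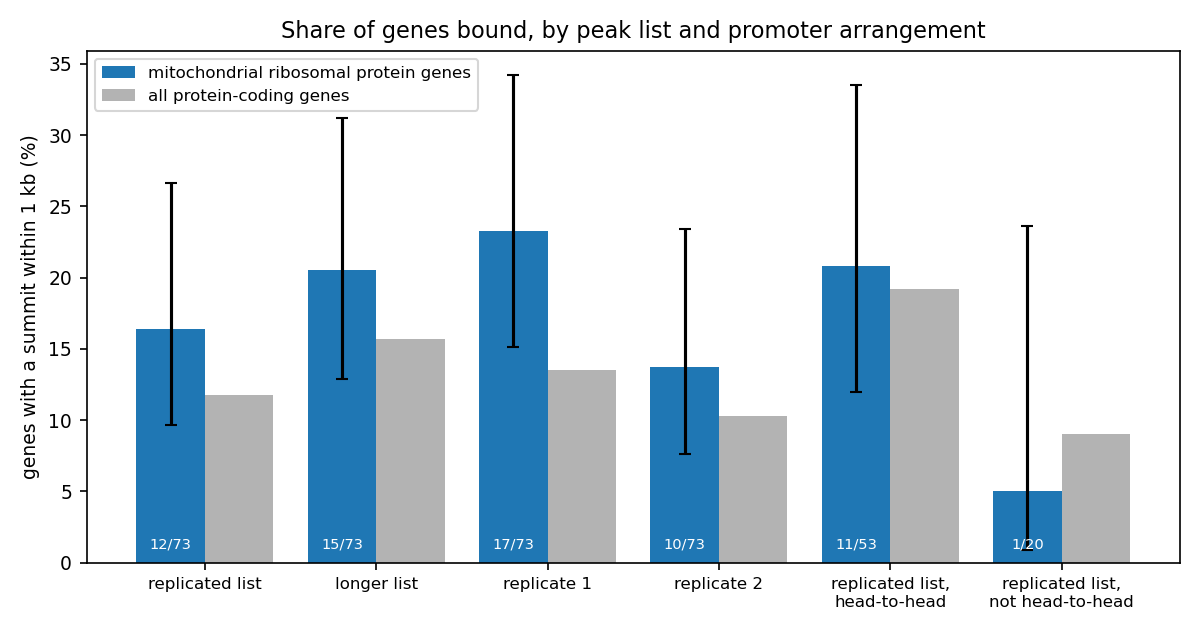
Share of genes with a summit within 1 kb of a start site (vertical, percent), for the 73 members (blue, with Wilson 95% intervals over genes and the counts at the foot) and all protein-coding genes (grey), in 4 thresholded lists and, for the replicated list, split by a head-to-head coding start within 500 bp. The members' share lies above the background in each list and near it, at 20.8% and 19.2%, among head-to-head genes.

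Most members had only weak peaks or none. In the list ranked between the replicates 49 of 73 members (67.1%) had any peak within 1000 bp, against 73.1% of all protein-coding genes, and 24 had none. In the series' other ranked list 61 members had one (83.6% against 81.1%), in replicate 1's ranked list 42 (57.5% against 62.9%) and in replicate 2's 67 (91.8% against 83.5%). Of the 61 members not bound, 37 had a peak in the list between the replicates, with a median signal of 30.5 and a range of 8.81 to 104. After mRpL39, mRpL34 and mRpS22, the strongest of them were mRpL33, head-to-head with the phospholipase C gene norpA (signal 45.1, IDR 0.11), and mRpL55, head-to-head with ATPsynD, an ATP synthase gene (44.0, IDR 0.37). The bound members lay on all arms that carry the family except X, with 4 of 12 on 2L, 2 of 12 on 2R, 4 of 17 on 3L, 2 of 21 on 3R and 0 of 11 on X. The share of all protein-coding genes bound ran from 10.9% (2R) to 12.6% (3L) over these arms and was 11.9% for X. Counts over so few members cannot tell the arms apart.

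With narrower windows the members bound were 11 within 500 bp (15.1%, against 9.39% of all protein-coding genes) and 9 within 250 bp (12.3% against 7.05%). The first step lost mRpL27 and the second also mRpL20 and mRpS23. Within 2000 bp they were 18 (24.7% against 15.6%), and here the background lay just under the interval of 16.2% to 35.6%. Using only the 5′ end of each gene gave the same 12 members (16.4% against 10.2%). The 1630 strongest peaks gave 8 (11.0% against 7.47%), the same 8 that were bound in all 4 lists. In every setting of this paragraph except 2000 bp, the background lay inside the Wilson interval of the members' share. The lower limits were 8.63% within 500 bp, 6.62% within 250 bp, 9.66% for 5′ ends and 5.66% for the strongest peaks. The shares in these settings were not split by head-to-head arrangement.

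At the summits of bound members no searched word was shared by most of them. CACTG on either strand was in 5 of the 12 windows of 200 bp (41.7%), at mRpS23, mRpS2, mRpL20, mRpS6 and mRpL27, against 46.6% of 1194 peaks near bound protein-coding genes. ACAGTG, whose reverse complement contains CACTG, was in 4 of 12 (33.3% against 20.2%). TAATTA, the core bound by many homeodomains, was in 3 of 12 (25% against 17.7%), at mRpL24, mRpS2 and mRpS26, and TATAAA was in 4 (33.3% against 37.4%). The DNA replication-related element TATCGATA, the core promoter motif GGTCACACT, the E-box CACGTG and GCGCATGCG, a site like that of NRF-1, were in none of the 12, against 3.27%, 1.09%, 1.93% and 0.0838%. Mean GC was 32.2% (SD 6.53 over 12 windows) against 35.3% (SD 7.07 over 1194). With 12 windows these shares are loose descriptions, and no match says only that the letters were not in that window.

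Of the searched words, the E-box CAGCTG stood furthest above the background in the promoters of the family. It was in 40 of the 73 promoters (54.8%), taken as 250 bp before to 50 bp after the 5′ end of the gene, against 17.7% of all protein-coding promoters. The word was in 7 of 12 bound members (58.3%) and 33 of 61 others (54.1%), and in 54.7% of head-to-head members and 55.0% of the rest, where all head-to-head promoters stood at 25.1% and all others at 14.9%. Its occurrences in members had a median position of 5 bp past the start site (middle 50% from -31 to 19 bp), against -48 bp over all promoters. CAGCTG was in 2 of the 12 summit windows, at mRpS2 and mRpL18 (16.7% against 10.1%). The mRpL41 promoter, for example, held it 6 bp before the start, while its summit lay 126 bp upstream. TATCGATA was in 15 of 73 promoters (20.5% against 9.36%). These were 3 of 12 bound members (mRpL20, mRpL32 and mRpS23) and 12 of 61 others (19.7%). Head-to-head members did not stand above their background for this word, at 15.1% against 17.4% of all head-to-head promoters. The excess lay in the 20 members without such a neighbour, at 35% against 6.32%. CACTG was in 6 of 12 bound and 33 of 61 other members' promoters (50% and 54.1%, against 46.2% of all).

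Other genes of mitochondrial gene expression were counted in the same way, from a list of 40. The list covered translation factors, aminoacyl-tRNA synthetases of mitochondria, and RNA synthesis and turnover. Of the 39 genes matched, 2 were bound (5.13%, Wilson interval 1.42% to 16.9%, against 11.8% of all protein-coding genes, inside that interval). These were PNPase, the mitochondrial polynucleotide phosphorylase gene (chr3R:31404502-31404805, signal 1158, rank 8, 81 bp upstream), which shares its peak with Gprk2, and LeuRS-m, the mitochondrial leucyl-tRNA synthetase gene (chr3L:4824911-4825099, signal 372, rank 192, 874 bp upstream), whose peak is also near the dynein gene Dhc64C. Both were past the thresholds of both replicates. None of the 10 translation factor genes was bound, nor were tko and bonsai. CAGCTG was in 48.7% of this list's promoters. Among respiratory chain and ATP synthase genes, picked by symbol, 5 of 80 were bound (6.25%, Wilson interval 2.7% to 13.8%, CAGCTG in 23.8% of promoters). Among cytoplasmic ribosomal protein genes 20 of 92 were bound (21.7%, 14.5% to 31.2%, CAGCTG in 9.78%). The background of 11.8% lies inside the first interval and under the second. The highest signal among those 20 was 395 (RpS19b, with the summit 897 bp upstream and CG5854 also within 1000 bp). Of the 12 bound mitochondrial ribosomal genes, 4 had 838 or more, each at a peak also near another coding gene. These differences were not tested. CG11294 itself had no summit within 1000 bp in any thresholded list, the nearest replicated summit lying 12237 bp downstream.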

How the data were processed

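Peak lists on dm6 were used as deposited; no source used here gave the aligner, the caller or the read depth. Each replicate had a ranked and a thresholded list, and the series had 2 of each. The deposited signal value of each peak is the authors' enrichment statistic. The deposited −log10 of the global IDR came from the ranked lists. The list ranked between the replicates was identified as the one holding all 3260 conservative peaks. A further 8 columns of list inputs in each series ranked list were not used. Summits are start plus offset, written 1-based. Genes came from Ensembl release 115 (BDGP6) without transposable elements, with all transcript starts, and sequence from RefSeq Release 6; peaks off the arms were left out. Peaks overlap with 1 bp or more. A member's position is that of its strongest summit within the window at its nearest start. The assignment was tested on simulated data. Counts are set beside those over all protein-coding genes with Wilson intervals; no p-value was computed. Words were searched on both strands. LRPPRC2 was not matched. Named are all bound members, the 5 unbound ones of highest signal, members at the window's edge, bound pathway genes and neighbours; mRpL37, mRpL35, mRpS7 and mRpS18B, RpS19b and RpL27A, and the band of the first 300 ranks, were named after values were seen. Members, lists and words were chosen with earlier results of these data known. Python 3.11.15, pandas 2.3.3, SciPy 1.17.1 and matplotlib 3.10.9 were used.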

Additional observations from a re-analysis of the deposited data

How the results depend on the processing

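The number of members bound stayed between 8 and 18 under the alternatives tried (other lists, windows, the strongest 1630 peaks and gene 5′ ends), each within 1.5 times the 12 reported. Every bound member's peak was within 1000 bp of another gene's start in each of them, against 58.2% of all bound protein-coding genes in the reported setting. That 58.2% is not a matched share. In the reported setting, head-to-head genes made up 11 of the 12 bound members but 733 of all 1648 bound genes. Without replicate 1 or without replicate 2 there were 10 and 17. The large-subunit count of 7 moved to 4 and 11 when 1 replicate's list was used alone, and was 12 within 2000 bp and 4 among the strongest peaks. The median position of -131 bp was -143 bp in the longer list and within 2000 bp, -136 bp within 500 bp, -126 bp within 250 bp, and -141.5 and -137 bp without replicate 1 and without replicate 2; the spread between the replicates' medians was 3.2 bp. The 2 pathway genes became 4 in the longer list, 1 within 500 bp, 1 within 250 bp, 4 within 2000 bp, and 2 and 5 without replicate 1 and without replicate 2. The cause of these moves was not tested beyond the change of list or window itself. Peaks of 8 members overlapped thresholded peaks of both replicates, 7 with an overlap of 50% of both peaks. CACTG stood at 22.2% to 50% of windows. No paired analysis was possible because there was 1 group. Depth is unknown, so absence from a list is not absence of binding.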
